A study of Homo sapiens with 12 samples.

Results

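The nuclear genes for the mitochondrial ribosome and for 4 complexes of oxidative phosphorylation were followed here through the open chromatin at their start sites in HCT116 cells, a human colorectal carcinoma line. A region of the accessibility table was taken as a member when it lay on chr1-22 within 1 kb of a GENCODE 44 transcription start of a protein-coding gene whose symbol begins with MRPL, MRPS, NDUF, SDH, UQCR or ATP5. The rule uses position and symbol only, and no measured value. The regions it could draw on are peaks called in these same libraries and merged, so a start with no peak near it has no member region. The rule found 159 of the 30170 regions, at 124 of the 161 genes with such names, and these are called member regions below. The other 11606 regions within 1 kb of a start of a protein-coding gene on chr1-22, called other gene starts, serve for comparison.

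Mitochondria keep a small genome of their own, but almost all of their proteins are encoded in the nucleus. MRPL and MRPS genes encode the large and small subunit of the mitochondrial ribosome, which translates the few messages of that genome. NDUF genes encode complex I (NADH dehydrogenase) and its assembly factors, SDH genes complex II (succinate dehydrogenase), UQCR genes complex III (the cytochrome bc1 complex) and ATP5 genes the ATP synthase, complex V. Many of these promoters lack a TATA box and carry sites for ETS factors such as GABPA, for NRF1 and for YY1. EHF is itself an ETS factor of epithelial cells, and CDX1 is a homeobox factor of the intestine.

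The assay was ATAC-seq, in which the Tn5 transposase cuts and tags accessible DNA, and reads are counted over regions called as peaks. There were 4 groups of HCT116 cells with 3 libraries each. EHF cells were stably transfected with pcDNA3.1-EHF and EV cells with the empty plasmid vector. The methods describe selection of these transfected lines as geneticin-resistant (G418) clones. CDX1 cells were transduced with an MSCV-IRES-GFP retrovirus carrying CDX1, and the GFP-positive cells were sorted and expanded, with no geneticin step described. EHF+CDX1 cells are the CDX1 line given the EHF plasmid in a later step and again grown out as clones under geneticin, so clonal origin and vector history differ between the groups together with the factors. No empty retrovirus control is among the groups. The sources used here do not say whether libraries of a group came from separate cultures, and the p-values measure the spread between these libraries only.

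The libraries held 567366 to 2443334 counts. Between 46.1% and 93.0% of a library's counts fell on 194 regions that match mitochondrial DNA or on exons of EHF and CDX1. Exons of EHF held 34.7% to 68.3% of the counts in EHF libraries and 5.43% to 39.9% in EHF+CDX1 libraries, and exons of CDX1 held 35.8% to 78.4% in CDX1 libraries and 4.56% to 25.5% in EHF+CDX1 libraries. In the groups not given the factor both stayed at or under 0.0168%. None of the 159 member regions matched mitochondrial DNA. Counts were therefore expressed as counts per 1000000 (CPM) after TMM scaling, a normalisation that is little moved by a few dominant regions, and these values are called scaled CPM. The member regions together held 835 to 5452 counts per library, and the median member region held 4 to 27 counts. With so few counts single regions were measured coarsely, and 65 of the 159 member regions had 3 counts or fewer in EV replicate 3.

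Stretches around a match to the ETS core, CGGAAG, show what these starts look like in sequence, since this core is the letters at which an ETS factor such as EHF could bind. For each family the region of highest level that holds the core, among the chromosomes whose sequence is printed here, is shown with 12 bases on either side, read 5′ to 3′ on the strand of the match in hg38, with the core in capitals. The stretch of MRPL18 (large subunit) lies at chr6:159789780-159789809, plus strand. That of MRPS33 (small subunit) lies at chr7:141014935-141014964, plus strand, and that of NDUFAF8 (complex I assembly) at chr17:81239298-81239327, plus strand. SDHAF3 (complex II assembly) is shown at chr7:97117623-97117652, minus strand, UQCR11 (complex III) at chr19:1605561-1605590, minus strand, and ATP5PF (peripheral stalk of the ATP synthase) at chr21:25734894-25734923, minus strand.
MRPL18: gaaagcggagaaCGGAAGtcggatgttgga
MRPS33: gcgccctcgtccCGGAAGgcccgccctcta
NDUFAF8: gctgtttgacacCGGAAGaggacggaccta
SDHAF3: gtattagtgaacCGGAAGgcagacgaaaga
UQCR11: tccaaccctcgcCGGAAGttactgtaagtg
ATP5PF: cggagccagggcCGGAAGtagagcggaggt
The middle of the stretch lay from 102 bases upstream of the nearest annotated start of its gene (UQCR11) to 16 bases downstream of it (MRPS33). The region of ATP5PF also lies at the start of GABPA, which is transcribed the other way and encodes an ETS factor.

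The ETS core was found on either strand in 60 of the 159 member regions (37.7%) and in 24.9% of other gene starts. Those 60 regions belong to 56 of the 124 genes. Longer regions hold more matches, so the same count was made in regions of exactly 150 bp, where 21 of 46 member regions (45.7%) and 16.3% of other gene starts held it. The longer ETS form CCGGAAGT, each match of which also contains the core, was found in 20 member regions (12.6%) against 6.14% of other gene starts. The core was most frequent among the few SDH regions (5 of 7) and UQCR regions (5 of 8), and was found in 17 of 48 MRPL, 13 of 30 MRPS, 15 of 54 NDUF and 6 of 15 ATP5 regions.

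Among other motifs, the YY1 letters AANATGGC were found in 32 member regions (20.1%) against 5.43% of other gene starts, and in 9 of the 30 MRPS regions. The NRF1 letters GCGCATG was found in 24 (15.1%) against 5.43%, and in 10 of the 54 NDUF regions. The GC box GGGCGG of SP factors was found in 83 member regions (52.2%) and in 60.8% of other gene starts. CCAAT, the box of NF-Y, was found in 46 (28.9%) against 30.3%, and TGACGTCA, the full CREB site, in 4 (2.52%) against 2.45%. The CDX letters TTTATG or TTTATT were found in 3 member regions (1.89%) and in 5.82% of other gene starts. All motifs were searched on both strands. In the 150 bp regions the shares were 10.9% and 3.66% for YY1, 8.70% and 3.37% for NRF1, 47.8% and 51.7% for SP and 10.9% and 17.8% for NF-Y. There, none of the 46 member regions held the CDX letters, against 5.67% of other gene starts. The 150 bp count matches length only, and the sets also differ in position. A start was overlapped by 81.1% of member regions and 58.1% of other gene starts. Starts on both strands lay near 46.5% and 13.8% of them, and the motif shares were not matched for this. These shares are a description of letters in windows, without a test, and a match is not a bound site.

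**Figure D1:**
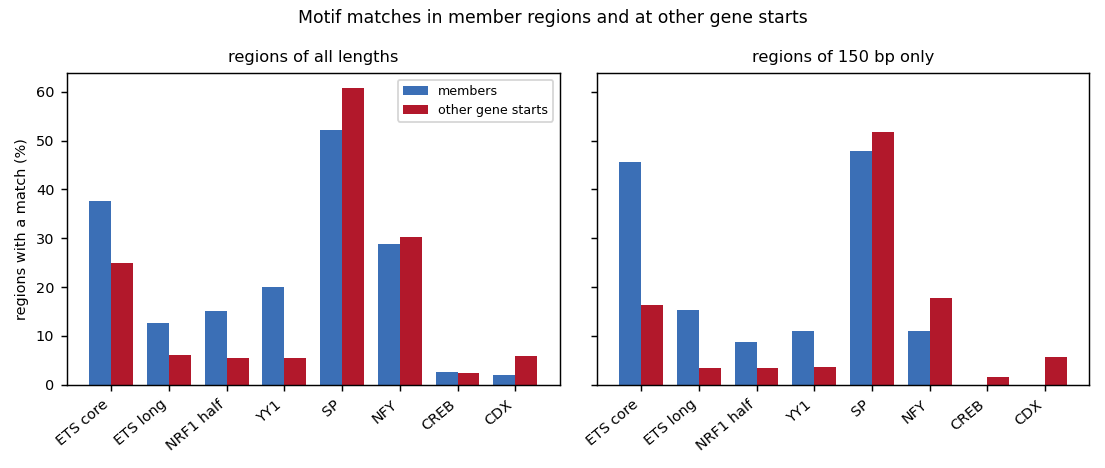
Percentage of member regions (blue) and of other gene starts (red) that hold each motif on either strand, for regions of all lengths (left) and of 150 bp only (right). The ETS core, NRF1 and YY1 bars are higher for member regions, at 37.7%, 15.1% and 20.1%, and the SP and CDX bars are lower, at 52.2% and 1.89%.

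Coverage of the families was fairly even. A region was found at 39 of 49 MRPL genes, 21 of 29 MRPS, 35 of 46 NDUF, 7 of 8 SDH, 8 of 9 UQCR and 14 of 20 ATP5 genes, in all 77.0%, while 49.2% of all 19111 protein-coding genes on these chromosomes had a region. The 37 genes without a region include SDHC, a membrane anchor of complex II, MRPS5 of the small subunit, NDUFS4 of complex I and ATP5F1D of the ATP synthase head. Of the genes with a region, 95 had 1, 24 had 2 and 5 had more, with 6 regions at NDUFAF6 and 4 at NDUFB2. MRPL46 and MRPS11 share 2 regions, and MRPL47 and NDUFB5 share 1, since each pair is transcribed from neighbouring starts.

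Member regions sat close to their starts. Of the 159, 115 (72.3%) overlapped an annotated start of the member gene itself, and the midpoint lay at a median of 37 bases upstream of it (quartiles 89 and 6 bases upstream). Counting any protein-coding gene, 129 (81.1%) overlapped a start, against 58.1% of other gene starts. A start of a gene on the opposite strand lay within 1 kb of 74 member regions (46.5%), at 57 of the 124 genes, while 13.8% of other gene starts had protein-coding starts on both strands within that distance. Reads at such regions cannot be divided between the paired promoters. Median length was 181 bp for member regions and 164 bp for other gene starts.

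Levels per kb spread widely within the set. Averaged over the 12 libraries, the median member region held 39.3 scaled CPM per kb (quartiles 30.6 and 49.6), against 34.2 at other gene starts (quartiles 25.4 and 44). The highest was MRPL50 at 125 scaled CPM per kb, followed in the large subunit by MRPL18 at 91.4, and UQCRB, a subunit of complex III, stood at 113. In the small subunit MRPS33 and MRPS9 stood at 95.5 and 94.6, and NDUFAF8 led the complex I family at 78.3, before the region shared by MRPL47 and NDUFB5 at 67.1. ATP5PF at 64.3 and ATP5F1C, the central shaft of the ATP synthase, at 59.2 led their family. The assembly factors SDHAF4 and SDHAF3 led complex II at 58.7 and 52.4, and UQCR11 followed UQCRB at 50.1. The lowest of each family were MRPL40 at 7.25, NDUFB2 at 12.6, MRPS2 at 17.8, ATP5MJ at 20.7, SDHAF2 at 29.4 and UQCRH at 34.1. At MRPL40 the lowest region had 0 counts in all 3 EV libraries and 0 to 13 counts in the other 9, so no fold change is given for it.

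**Figure D2:**
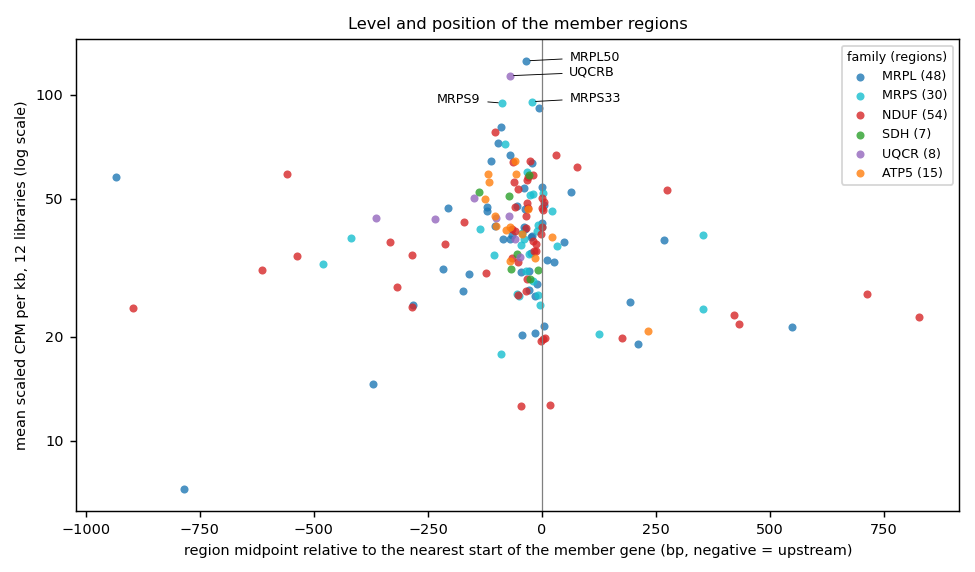
Each point is a member region, coloured by family, placed by the distance of its midpoint from the nearest start of the member gene (bp, negative is upstream) and by its mean scaled CPM per kb over 12 libraries (log scale). The points crowd just upstream of the start, with a median of 37 bases, and MRPL50 at 125 and UQCRB at 113 scaled CPM per kb are the highest.

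The order of levels was shared by the groups. Across the 159 regions the Pearson correlation of log2(scaled CPM + 1) of group means was 0.83 to 0.87 for the 6 pairs of groups. Between single libraries it had a median of 0.64 within groups (12 pairs) and of 0.65 between groups (54 pairs). All these values share the same regions, lengths and base composition, and are given as a description.

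Summed over all member regions, accessibility was similar in the 4 groups. The sums were 1432, 1377 and 1255 scaled CPM in the EV libraries, 1583, 1361 and 1552 for EHF, 1502, 1354 and 1268 for CDX1 and 1499, 1231 and 1650 for EHF+CDX1. Both the lowest and the highest of the 12 sums were EHF+CDX1 libraries, and every pair of groups overlapped. In bulk libraries, fewer cells with an open site and a site that is less open in each cell cannot be told apart. Means were 1355 ± 90.5 in EV, 1499 ± 120 for EHF, 1375 ± 119 for CDX1 and 1460 ± 213 for EHF+CDX1 (SD, n = 3 libraries). The log2 ratio to EV was 0.15 for EHF, 0.02 for CDX1 and 0.11 for EHF+CDX1, against within-group SDs of 0.11, 0.11 and 0.17 on the same scale. EHF+CDX1 differed by −0.04 from EHF and by 0.09 from CDX1, with within-group SDs of 0.17 and 0.18. Since sums over chosen members carry no test here, these ratios are descriptions. With library totals alone as the scale, which include the reads over EHF and CDX1 exons, the log2 ratios were −0.43 for EHF and −0.63 for CDX1 against EV.

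A measure that does not use the scaling is the share of counts. Of the counts at all gene starts, leaving out mitochondrial matches and EHF and CDX1 exons, member regions took 1.66%, 1.63% and 1.47% in EV, 1.68%, 1.58% and 1.55% for EHF, 1.63%, 1.53% and 1.47% for CDX1 and 1.59%, 1.43% and 1.64% in EHF+CDX1. The lowest share, in EHF+CDX1 replicate 2, had a Wilson 95% interval of 1.39% to 1.46%, and the highest, in EHF replicate 1, of 1.60% to 1.76%. These intervals cover counting error only. Group means were 1.59% for EV, 1.60% for EHF, 1.54% for CDX1 and 1.55% for EHF+CDX1, with SDs of 0.10, 0.0678, 0.0829 and 0.111 percentage points (n = 3).

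The mitochondrial ribosome held the largest part of the sum together with complex I. A region shared by families, such as that of MRPL47 and NDUFB5, counts in the sum of each, so family sums overlap. MRPL regions summed to 416 ± 12.6 scaled CPM in EV, 433 ± 41.0 for EHF, 396 ± 27.6 for CDX1 and 418 ± 54.3 for EHF+CDX1 (SD, n = 3). MRPS regions summed to 238 ± 28.1, 264 ± 29.2, 227 ± 30.4 and 252 ± 30.4 in the same order. All group ranges overlapped in both subunits, and the 10 log2 ratios lay between −0.07 and 0.15. The large subunit varied least of the 6 families in EV cells, with a coefficient of variation of 3.04% among the 3 libraries.

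Complex I regions summed to 420 ± 23.5 scaled CPM in EV, 466 ± 33.8 for EHF, 448 ± 42.8 for CDX1 and 482 ± 83.6 for EHF+CDX1. The 9 regions of the core subunits, which carry the flavin and the iron-sulphur clusters, had sums of 58.2, 49.7 and 46.6 in EV, 91.5, 45.5 and 79.5 for EHF, 96.2, 50.2 and 60.3 for CDX1 and 86.1, 60.7 and 78.9 for EHF+CDX1. The 3 EHF+CDX1 values lay above the 3 EV values, at a log2 ratio of 0.55 with a within-group SD of 0.22, while replicate 2 of the EHF libraries lay below all 3 EV values. The 15 regions of assembly factors (NDUFAF) summed to 130 ± 21.0 in EV and 146 ± 10.1 in EHF+CDX1, and the 30 regions of other subunits to 238 ± 18.2 and 260 ± 65.4.

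Complex II and complex III had few regions and gave the only family sums without overlap. The 7 SDH regions summed to 54.9, 58.7 and 55.6 scaled CPM in EV, 61.3, 61.4 and 74.0 for EHF, 67.3, 59.8 and 47.3 for CDX1 and 75.4, 63.9 and 78.1 for EHF+CDX1. All 3 EHF and all 3 EHF+CDX1 sums lay above the EV sums, at log2 ratios of 0.22 and 0.36 with within-group SDs of 0.12 and 0.12. With library totals alone these ratios were −0.36 and 0.31, and scaled to other gene starts without EHF and CDX1 exons and mitochondrial matches they were 0.08 and 0.22. By role, the 4 regions of assembly factors gave 46.9, 39.5 and 39 in EHF+CDX1, above the other 9 libraries, of which the highest had 38.4, while the 3 regions of SDHA, SDHB and SDHD gave overlapping sums. The 8 UQCR regions summed to 88.9, 93.3 and 48.1 in EV, 104, 91.8 and 93.2 for EHF, 104, 77.2 and 79.2 for CDX1 and 80.1, 63.2 and 85.5 for EHF+CDX1. The low EV value of UQCR, in replicate 3, rested on 32 counts over the 8 regions. EHF+CDX1 lay below EHF at a log2 ratio of −0.34 with a within-group SD of 0.18, which was 0.12 with library totals alone. These were 3 of 30 family ratios, and each of the others overlapped. Groups without overlap were frequent among single regions too. Over all regions their share was 9.93% in EHF against EV, 22.0% in EHF+CDX1 against EV and 20.7% in EHF+CDX1 against EHF. The separations of family sums are descriptions and were not tested.

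The 15 ATP5 regions summed to 175 ± 18.7 scaled CPM in EV, 196 ± 24.2 for EHF, 184 ± 14.9 for CDX1 and 180 ± 36.4 for EHF+CDX1. The 4 regions of the F1 head, the catalytic part, summed to 48.9 ± 6.26, 43.2 ± 2.62, 46.5 ± 2.41 and 48.4 ± 8.23. The 5 regions of the peripheral stalk, which holds the head in place, summed to 69.1, 59.4 and 51.1 in EV, 72.3, 61.4 and 75.9 for EHF, 66.4, 58.8 and 57.9 for CDX1 and 60, 46 and 54 for EHF+CDX1. EHF and EHF+CDX1 did not overlap, while EV overlapped both. Of 45 ratios of such roles within the families, 5 were without overlap, the others being the complex I core in EHF+CDX1 against EV and the complex II assembly factors in EHF+CDX1 against each other group. Like those of the family sums, these separations were not tested. ATP5IF1, the inhibitor protein of the ATP synthase, had 1 region at 4.58 ± 1.83 in EV and 5.77 ± 0.783 in EHF+CDX1.

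**Figure D3:**
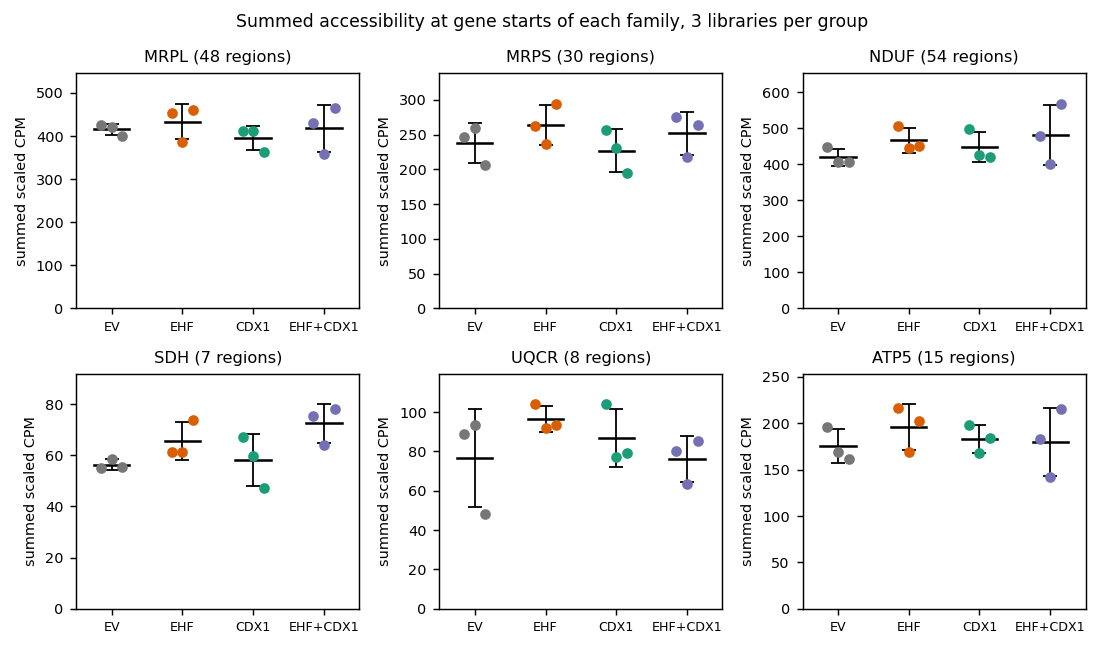
Summed scaled CPM over the member regions of each family, with 1 point per library, and the mean and SD of 3 libraries per group as lines and bars. Group ranges overlap in MRPL, MRPS, NDUF and ATP5, while all EHF+CDX1 points of SDH (63.9 to 78.1) lie above the EV points (54.9 to 58.7).

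Single regions were tested with the edgeR quasi-likelihood test on raw counts across all 30154 regions that passed a minimum of 3 CPM in at least 1 library, with Benjamini-Hochberg adjustment over all of them. For this minimum CPM were taken on library totals before TMM scaling, and all 159 member regions passed it. EHF+CDX1 against EV called 0 of the 159 at an adjusted p under 0.05, where 2.57% of all regions were called. At an unadjusted p under 0.05 there were 13 member regions (8.18%), against 19.0% of all regions and 10.8% of other gene starts. EHF against EV called 0, with 0.00995% called over all regions, and 4 (2.52%) had an unadjusted p under 0.05, against 4.96% of all regions. CDX1 against EV called 0, with 0% called over all regions, and 2 (1.26%) had an unadjusted p under 0.05, against 3.81% of all regions. EHF+CDX1 against CDX1 called 0 where 2.60% of all regions were called, with 9 (5.66%) at an unadjusted p under 0.05 against 17.5% of all regions. The interaction, which asks whether the log2 effect of both factors differs from the sum of their separate log2 effects, called 0 where 0.123% of all regions were called, with 5 (3.14%) at an unadjusted p under 0.05 against 9.88% of all regions. EHF+CDX1 against EHF called 1 of the 159, where 4.35% of all regions were called, with 13 (8.18%) at an unadjusted p under 0.05 against 19.6% of all regions and 10.2% of other gene starts.

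DESeq2 called 0 member regions in each of the 6 comparisons, but called few regions anywhere, with 111 over all regions in EHF+CDX1 against EV, 8 in EHF against EV, 3 in CDX1 against EV, 173 in EHF+CDX1 against EHF, 85 in EHF+CDX1 against CDX1 and 6 in the interaction. Voom after quantile normalisation called 1, 0, 0, 2, 1 and 0 member regions in the same order, of 715, 19, 4, 1115, 1028 and 23 over all regions. With the replicate number as a block, edgeR called 1, 0, 0, 1, 1 and 0 member regions in that order. Over all regions it then called 1711, 66, 6, 1796, 1243 and 134.

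The size of the differences was small. The median log2 fold change of the member regions was 0.10 in EHF+CDX1 against EV, 0.16 in EHF against EV and 0.05 in CDX1 against EV, while other gene starts had medians of 0.19, 0.15 and 0.07 and all regions of 0.18, 0.01 and 0.00. In EHF+CDX1 against EHF it was −0.08 for member regions and 0.02 for other gene starts, and in EHF+CDX1 against CDX1 it was 0.07 and 0.11. The log2 fold change lay within 1 of zero at 144 of the 159 member regions in EHF+CDX1 against EV (90.6%), compared with 82.4% of other gene starts and 66.9% of all regions. An SE is given here as the size of the log2 fold change over the square root of the edgeR F statistic. It is unreliable where the fold change is very small. For member regions its median was 0.52 in that comparison. A difference of less than about 1 on the log2 scale could rarely be told from the spread between libraries, even without adjustment. After adjustment larger values also went uncalled, such as −1.99 at an NDUFAB1 region and −2.18 at an MRPL13 region. The absence of calls in that comparison does not exclude changes of that size.

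Regions whose groups did not overlap were also counted, as a description. In EHF+CDX1 against EV 11 member regions (6.92%) had groups without overlap, 8 of them higher, where 22.0% of all regions and 18.3% of other gene starts did. In EHF against EV there were 12 (7.55%), near the 9.93% of all regions and 11% of other gene starts, and in CDX1 against EV 12 (7.55%), near 8.82% and 9.55%. There were 20 (12.6%) in EHF+CDX1 against EHF, with 20.7% and 15.9%, and in EHF+CDX1 against CDX1 19 (11.9%), with 20.5% and 17.4%.

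**Figure D4:**
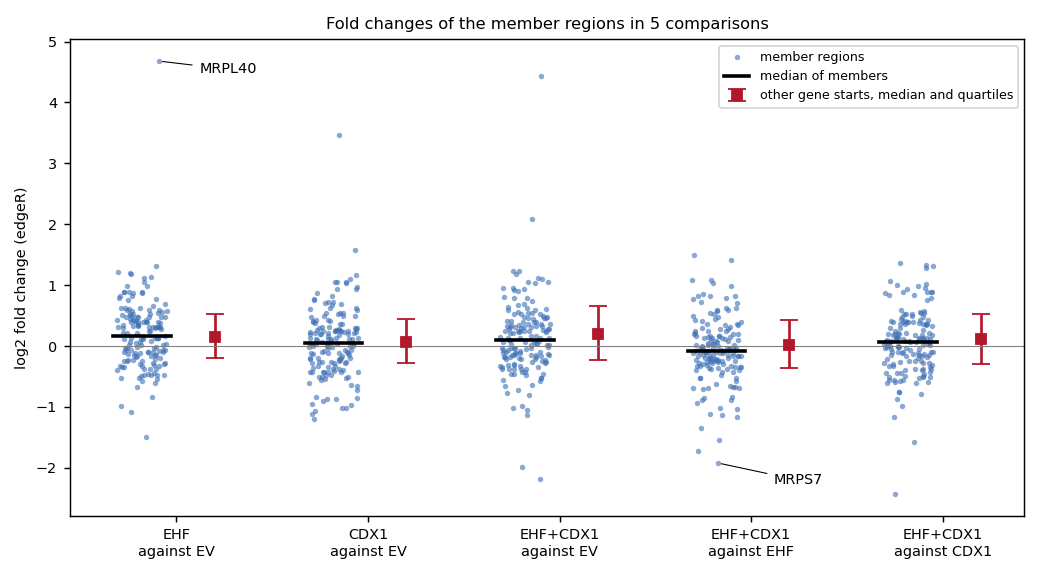
Log2 fold change (edgeR) of each member region in 5 comparisons (blue points) with the members' median (black line), beside the median and quartiles of other gene starts (red). Member medians lie between −0.08 and 0.16, MRPS7 is the called region, and the highest point of each comparison with EV is MRPL40, whose EV counts are all 0 and whose fitted value depends on the prior count.

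The called region lies at the start of MRPS7, a protein of the small subunit, at chr17:75261562-75261721 (hg38), and GGA3, a clathrin adaptor for Golgi sorting, starts within 1 kb on the opposite strand. Its scaled CPM were 18.7, 4.14 and 4.51 in EV, 21.0, 9.75 and 20.1 for EHF, 9.62, 6.75 and 5.91 for CDX1 and 8.31, 2.26 and 3.32 for EHF+CDX1. The counts behind them were 17, 6 and 3 in EV, 23, 24 and 22 for EHF, 10, 14 and 5 for CDX1 and 14, 10 and 4 for EHF+CDX1. All EHF libraries lay above all EHF+CDX1 libraries, while EV replicate 1 reached the level of the EHF libraries and the other EV libraries did not. Accessibility fell in EHF+CDX1 against EHF by 1.92 on the log2 scale (SE 0.47, edgeR adjusted p = 0.0068). Against EV the log2 fold change was 0.87 in EHF (SE 0.47, edgeR adjusted p = 0.96) and −1.05 in EHF+CDX1 (SE 0.52, adjusted p = 0.25), neither of them called. Of 24 alternatives 19 kept the call. Those that only narrowed the set of members reused the main test and could not lose it. The call was lost without EHF replicate 1 (edgeR adjusted p = 0.051) and without EHF+CDX1 replicate 2 (0.25). It was also lost with DESeq2 (0.081), with library size alone (0.49) and with limma-trend on the deposited log2 CPM (0.77). The region holds an ETS core near its edge, given here on the minus strand of hg38 at chr17:75261563-75261589 with the core in capitals, since it is the only called member.
MRPS7: atatggcggaggCGGAAGgggaaagcc
The middle of this stretch is 98 bases upstream of the MRPS7 start, and the match lies so near the end of the region that fewer than 12 bases follow it.

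A pair of other regions were called under some alternatives only, and both were chosen for description after these values were seen. A region 803 bases upstream of NDUFAB1, the acyl carrier protein of complex I, at chr16:23597119-23597305, had scaled CPM of 4.39, 9.67 and 4.51 in EV, 0.915, 5.69 and 7.31 for EHF, 4.81, 4.34 and 5.91 for CDX1 and 1.19, 0.451 and 4.98 for EHF+CDX1. EHF+CDX1 replicate 3 lay within the EV range. The log2 fold change of EHF+CDX1 against EV was −1.99 (SE 0.69, edgeR adjusted p = 0.089). The other NDUFAB1 region, which overlaps the start, had a log2 fold change of 0.07 (SE 0.52) in the same comparison.

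The second region at MRPL13, a protein of the large subunit, lies at chr8:120445337-120445498 and overlaps an annotated MRPL13 start. MTBP starts nearby on the opposite strand. Its scaled CPM were 3.29, 6.22 and 3.01 in EV, 1.83, 3.25 and 4.57 for EHF, 4.81, 6.75 and 3.55 for CDX1 and 1.19, 1.13 and 0 for EHF+CDX1. All 3 EHF+CDX1 values lay under the 9 others, on 2, 5 and 0 counts. The log2 fold change was −2.18 against EV (SE 0.81, edgeR adjusted p = 0.12) and −2.43 against CDX1 (SE 0.77, adjusted p = 0.060). The neighbouring MRPL13 region had a log2 fold change of −0.22 against EV (SE 0.76).

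Among regions with a mean count of at least 10, the 5 highest log2 fold changes of EHF+CDX1 against EV were at MRPL48 (1.23), NDUFS7 (1.18), NDUFS3 (1.12), NDUFS8 (1.06) and SDHAF1 (1.06), with SEs of 0.47 to 0.62 and edgeR adjusted p of 0.19 to 0.31. Leaving out single libraries moved these log2 fold changes widely, to 0.65 to 1.84 at MRPL48, 0.75 to 1.83 at NDUFS7, 0.62 to 1.77 at NDUFS3, 0.65 to 1.47 at NDUFS8 and 0.55 to 1.30 at SDHAF1. The lowest values came without EV replicate 2 (MRPL48 and NDUFS8), EV replicate 3 (NDUFS7) or EHF+CDX1 replicate 1 (NDUFS3 and SDHAF1), and the highest without EV replicate 1 or EHF+CDX1 replicate 2. NDUFS3, NDUFS7 and NDUFS8 are core subunits of the arm of complex I that takes electrons from NADH to ubiquinone, and SDHAF1 helps insert iron-sulphur clusters into complex II. At NDUFS8 the scaled CPM were 8.78, 3.45 and 7.52 in EV, 15.6, 9.35 and 17.4 for EHF, 18.3, 6.75 and 15.4 for CDX1 and 15.4, 7.0 and 19.1 for EHF+CDX1. Replicate 2 was the lowest library in each of the 4 groups, and only the EHF libraries cleared all EV libraries. The log2 fold changes of NDUFS8 against EV were 1.13 for EHF, 1.03 for CDX1 and 1.06 for EHF+CDX1 (SE 0.47, 0.49 and 0.47, edgeR adjusted p = 0.95, 1 and 0.19).

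The 5 lowest values of EHF+CDX1 against EV were at MRPL1 (−1.01), UQCRC2 (−0.57), MRPL19 (−0.47), ATP5PF (−0.46) and ATP5F1C (−0.46), with SEs of 0.36 to 0.46 and edgeR adjusted p of 0.17 to 0.57. MRPL1, a protein of the stalk of the large subunit, had scaled CPM of 9.88, 15.9 and 13.5 in EV, 15.6, 10.2 and 11.9 for EHF, 11.5, 10.1 and 18.9 for CDX1 and 4.16, 6.77 and 9.14 for EHF+CDX1. All EHF+CDX1 libraries lay under the other 9, a separation that naming the lowest value itself favours. The other 4 had groups that overlapped.

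In EHF against EV the 3 highest values were at NDUFAF5 (1.20, SE 0.45), NDUFS8 and ATP5PD (1.06, SE 0.46), and the 3 lowest at NDUFB4 (−0.53), MRPS9 (−0.48) and ATP5F1B (−0.48), with no edgeR adjusted p under 0.89. NDUFAF5 is a methyltransferase that modifies NDUFS7 during assembly of complex I. Its scaled CPM were 4.39, 10.4 and 3.01 in EV and 20.1, 12.2 and 14.6 in EHF, without overlap, and its region also lies at the start of ESF1 on the opposite strand. ATP5PD, a subunit of the peripheral stalk, had 8.78, 4.84 and 6.01 in EV, 14.6, 8.94 and 18.3 for EHF, 16.3, 12.1 and 11.8 for CDX1 and 12.5, 9.48 and 12.5 for EHF+CDX1. All 9 libraries with a factor lay above the 3 EV libraries. These 3 comparisons share the EV libraries, so they are not independent of each other. NDUFAF5 and ATP5PD were named for their high rank, which itself favours such separation.

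In CDX1 against EV the 3 highest values were at ATP5PD (1.05, SE 0.46), NDUFS8 and NDUFA4 (0.73, SE 0.49). The 3 lowest were at MRPS28 (−0.87, SE 0.47), SDHAF3 (−0.72, SE 0.42) and ATP5F1C (−0.65, SE 0.39). The edgeR adjusted p of each was 1. NDUFA4 carries a complex I name but is now placed in complex IV, and MRPS28 belongs to the small subunit.

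**Figure D5:**
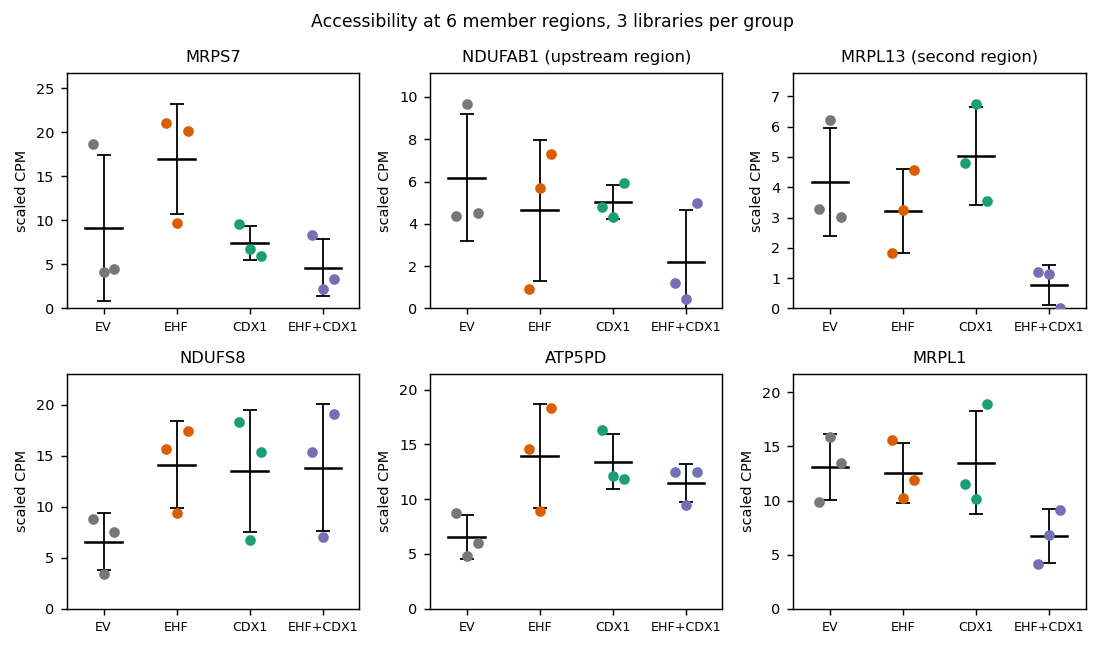
Scaled CPM at 6 member regions, with 1 point per library, and the mean and SD of 3 libraries per group as lines and bars. At MRPS7 the EHF points (9.75 to 21.0) lie above the EHF+CDX1 points (2.26 to 8.31) and 1 EV point reaches 18.7, while the groups of NDUFS8 and of NDUFAB1 share part of their range in EHF+CDX1 against EV.

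Landmark subunits are given next whether or not they moved. In complex I, NDUFS1, which carries iron-sulphur clusters, had 9.88, 15.2 and 16.5 scaled CPM in EV and 22, 20.1 and 23.3 in EHF+CDX1, without overlap (log2 fold change 0.64, SE 0.37, edgeR adjusted p = 0.34). NDUFV1, the flavin subunit, had 3.39 ± 2.78 in EV and 4.04 ± 2.06 in EHF+CDX1 (SD, n = 3). The assembly factor NDUFAF1 had 3.02 ± 2.16 and 3.81 ± 2.02. Per kb and over all 12 libraries NDUFS1 held 58.7 scaled CPM, NDUFV1 19.8 and NDUFAF1 19.6, and the NDUFS1 region also covers the start of EEF1B2 on the opposite strand.

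In complex II, SDHA, the flavoprotein, had 5.49, 6.22 and 4.51 scaled CPM in EV, 4.57, 6.91 and 21.0 for EHF, 6.73, 11.6 and 8.28 for CDX1 and 13.1, 8.58 and 10.8 for EHF+CDX1. The EHF+CDX1 libraries lay above the EV libraries (log2 fold change 0.92, SE 0.49, edgeR adjusted p = 0.29), and so did the CDX1 libraries, while EHF was split by 1 high library. SDHB, the iron-sulphur subunit, had 14.7 ± 4.45 in EV and 11.8 ± 4.95 in EHF+CDX1, and SDHD, a membrane anchor, 5.04 ± 2.50 and 8.06 ± 2.49. In complex III, UQCRFS1, the Rieske protein, had 10.7 ± 3.07 in EV and 15.4 ± 2.64 in EHF+CDX1, UQCRC1 6.04 ± 0.530 and 6.17 ± 1.51, and UQCRB 22.2 ± 13.7 and 18.3 ± 3.04.

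In the ATP synthase, ATP5F1A, the alpha subunit of the head, had 4.39, 4.84 and 3.01 scaled CPM in EV, 8.23, 9.75 and 4.57 for EHF, 8.66, 8.68 and 10.6 for CDX1 and 5.34, 3.61 and 3.32 for EHF+CDX1. The CDX1 libraries lay above those of EV and of EHF+CDX1 (log2 fold change of CDX1 against EV 1.10, SE 0.56, edgeR adjusted p = 1). ATP5F1B, the catalytic beta subunit, had 13.2 ± 8.34 in EV and 12.8 ± 1.93 in EHF+CDX1, and ATP5MC1, a subunit of the rotating c ring, 26.4 ± 8.72 and 30.1 ± 9.96. In the ribosome, MRPL12 had 7.68 ± 3.76 in EV and 7.65 ± 1.52 in EHF+CDX1, MRPL3 12.8 ± 1.56 and 10.5 ± 3.28, and MRPS12 10.7 ± 5.99 and 15.1 ± 5.40 at its higher region. None of these landmarks was called in a comparison with EV.

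Because EHF is an ETS factor, the members with and without the ETS core were set side by side. In EHF against EV the median log2 fold change was 0.14 over the 60 regions with the core, of which 37 were above 0, and 0.21 over the 99 without it, of which 60 were above 0. At other gene starts it was 0.18 with the core and 0.14 without. In EHF+CDX1 against EV the member medians were 0.02 with the core and 0.14 without it. Summed over the 60 regions with the core, scaled CPM were 531.9 ± 64.7 in EV, 580.6 ± 70.6 for EHF, 512.1 ± 44.1 for CDX1 and 547.8 ± 91.4 for EHF+CDX1. Over the 99 without it they were 822.9 ± 46.5, 918.4 ± 51.4, 862.5 ± 76.6 and 912.2 ± 123 (SD, n = 3).

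Other nuclear genes of the same pathways gave 0 called regions as well. Of 75 such genes in 7 lists, 59 had 84 regions, of which 82 are not member regions and 2, at GABPA, are the ATP5PF regions counted above, and edgeR called none of these in any of the 6 comparisons. At an unadjusted p under 0.05 there were 3 in EHF+CDX1, 2 in EHF and 2 in CDX1 against EV, where all regions had 19%, 4.96% and 3.81%. There were 9 in EHF+CDX1 against EHF, 4 in EHF+CDX1 against CDX1 and 4 in the interaction, where all regions had 19.6%, 17.5% and 9.88%. The 19 of 23 genes of complex IV and its assembly, which hold 25 regions, had median log2 fold changes of 0.05 in EHF+CDX1, 0.28 in EHF and 0.14 in CDX1 against EV. Genes of mitochondrial transcription and translation, such as TFAM and POLRMT, had 0.16, 0.13 and 0.17 over 25 regions. Known regulators of these genes (GABPA, YY1, ESRRA, PPARGC1B and PPRC1) had 0.02, 0.22 and 0.00 over 10 regions. Complex I assembly factors outside the NDUF names had 0.11, 0.18 and −0.09 over 10 regions, and complex III and cytochrome c genes outside the UQCR names 0.11, 0.21 and −0.08 over 8. The 4 regions of ribosomal proteins outside the MRP names had 0.58, 0.66 and 0.42, and the 2 of ATP synthase assembly 0.28, 0.14 and −0.04.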

How the data were processed

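ATAC-seq was measured in 12 HCT116 libraries, 3 in each of 4 groups taken from the sample titles. Per the study's methods and the submitters' processing notes, the authors aligned reads to GRCh38/hg38 with Subread 2.0.0 and retained those that mapped to 1 place. HOMER 4.7 called peaks in each sample, the peaks were merged, and featureCounts 2.0.0 gave reads per region. Duplicate removal and shifting of reads for the transposase are not given in the sources used here, so PCR copies may be among the counts. The deposited raw counts were used for all results, and the deposited log2 CPM values only for 1 alternative.

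Regions were annotated with GENCODE 44, and mitochondrial matches found with blastn 2.17.0. Tests used edgeR 4.0.16 (TMM, robust quasi-likelihood fit, group as the only term, all 12 libraries) in R 4.3.3, adjusted over all regions tested. Alternatives used other scalings, filters, DESeq2 1.42.0, limma 3.58.1, a replicate block and leaving out each library. The script was tested on simulated data. Regions named in the text are the 2 highest and the lowest of each family by level per kb, those called, the extreme fold changes at a mean count of at least 10, and a fixed set of landmark subunits, of which 1 is not reported here, with a gene of several regions given by its most accessible one outside the lists of levels. Members, lists and tests were chosen with earlier results of these data known. Sequences were read from hg38. Totals of 567366 to 2443334 counts per library, and medians of 4 to 27 per member region, set the precision.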

Additional observations from a re-analysis of the deposited data

How the results depend on the processing

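Counts of called member regions were compared over 72 pairs of a comparison and an alternative other than leaving out a library, of which 64 gave the same number. Alternatives that only narrowed the set of members reused the main tests, so they could not add a call. In EHF+CDX1 against EV 1 region was called instead of 0 with the replicate block (NDUFAB1) and 1 with voom after quantile normalisation (MRPL13). In EHF+CDX1 against CDX1 the same alternatives called 1 instead of 0 (MRPL13 in each). In EHF+CDX1 against EHF voom called 2 instead of 1 (MRPS7 and MRPL13), and library size alone, limma-trend on the deposited log2 CPM and DESeq2 called 0. Leaving out single libraries gave 0 to 1 in EHF+CDX1 against EV, 0 to 2 against EHF and 0 to 1 against CDX1. The libraries behind these were EHF+CDX1 replicate 3 (1, 2 and 1 calls without it), EHF+CDX1 replicate 2 and EHF replicate 1 (0 against EHF) and EHF replicate 2 (1 against CDX1). The other 3 comparisons called 0 throughout. Without EHF+CDX1 replicate 3 the log2 fold change of the upstream NDUFAB1 region against EV was −3.13 (adjusted p = 0.015).

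The replicate numbers are shared by the groups. Deviations of same-numbered libraries correlated at −0.01 to 0.30 (18 pairs, 5 of them over 0.1), and those of different-numbered libraries at −0.17 to 0.06 (36 pairs). All 12 libraries correlated best with their own number, so same-numbered libraries were somewhat more alike. The labels do not say what a number stands for, and the main tests left it out. The replicate block changed no call of a member region other than those above, but it called more regions in every comparison. Over all regions it called 1711 instead of 776 in EHF+CDX1 against EV and 1796 instead of 1311 in EHF+CDX1 against EHF. It called 1243 instead of 783 in EHF+CDX1 against CDX1 and 66 instead of 3 in EHF against EV. In CDX1 against EV it called 6 instead of 0, and in the interaction 134 instead of 37.

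The log2 ratio of the summed scaled CPM moved by more than its within-group SD under some scalings. With library size alone it was −0.43 (EHF against EV), −0.63 (CDX1 against EV), 0.46 (EHF+CDX1 against EHF) and 0.66 (EHF+CDX1 against CDX1). Scaled to all other gene starts, which include EHF and CDX1 exons, it was −0.83, −0.70 and −1.76 for EHF+CDX1, EHF and CDX1 against EV and 0.92 for EHF+CDX1 against CDX1. Without those exons and mitochondrial matches, an alternative chosen after seeing the data, EHF against EV was 0.01, EHF+CDX1 against EV −0.03 and CDX1 against EV −0.04. Of 210 ratios of family sums 54 moved by more than their within-group SD, 24 with library size alone, 24 scaled to all other gene starts, 5 with that scale without the exons and mitochondrial matches, and 1 with regions that overlap a start. Leaving out single libraries gave 0.01 to 0.22, 0.07 to 0.21 and −0.05 to 0.08 for EHF+CDX1, EHF and CDX1 against EV.

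Of the uncalled fold changes named, 4 crossed zero in 1 alternative each. NDUFA4 (CDX1 against EV) was −0.11 with limma-trend. Without EV replicate 2 MRPL19 (EHF+CDX1 against EV) was 0.04 and NDUFB4 (EHF against EV) 0.01, and without EV replicate 3 ATP5F1B (EHF against EV) was 0.03. Over all left-out libraries these 3 spanned −0.81 to 0.04, −0.82 to 0.01 and −0.78 to 0.03. Depth limits every single region, since 10 member regions had 3 counts or fewer in all EV libraries.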
